A study of Mus musculus with 12 samples.

Results

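The genes described here are 30 nuclear receptors and coregulators of mouse liver, of 47541 gene names in the deposited tables. They are 26 receptors and 4 coregulators, and all 30 were found, by name, at 62 of 66468 assembled loci. Total RNA was sequenced in livers of wild-type male C57BL/6N mice (C57BL/6 in the labels), 17 weeks old and kept on a control diet, in 3 groups of 4 libraries each. RF mice had gone without food for 16 h and were then fed for 6 h, FA mice had gone without food for 16 h, and AL mice were fed ad libitum. The comparisons ask how the RNA of these regulators differs between the nutrient states.

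Nuclear receptors are transcription factors that bind small lipophilic molecules such as fatty acids, steroids, thyroid hormone, retinoids and foreign compounds, and some have no known ligand. Many bind DNA together with a retinoid X receptor. On DNA they recruit coactivators of the NCOA family or corepressors such as NCOR1. In liver they control fatty acid oxidation, lipid and bile acid synthesis, gluconeogenesis and drug metabolism.

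Levels are given as FPKM, a count of fragments scaled to transcript length and library size, pooled by the authors into 1 value per group and locus. The spread between the 4 libraries of a group and the depth of each library are unknown, so no value below carries an SD or a test, and a ratio is a description of these libraries. A fold is the ratio of FPKM after adding 0.1 to each, and 1.5-fold was the threshold. For each gene the main locus is the one with the highest mean FPKM of FA and AL. In whole liver, fewer cells of a type and less RNA per cell cannot be told apart. Neither the labels nor the methods state when livers were collected, so fasting and time of day cannot be told apart.

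Most of these regulators differed little between FA and AL. At a mean FPKM of 0.5 or more, 29 of the 30 main loci were compared, and 2 passed 1.5-fold. Nr1i3, which encodes the constitutive androstane receptor CAR, was higher in FA, and Esr1, which encodes estrogen receptor alpha, was lower in FA. Of all 22056 loci at this level, 15.0% passed 1.5-fold (6.68% higher and 8.33% lower in FA), as did 12.2% of 11437 protein-coding genes with 1 locus each. The median log2 ratio was 0.12 for the 29 main loci and -0.02 for all loci, and 19 of the 29 were higher in FA by any amount. Of all loci, 47.8% had a ratio at least as high as that of Ppard, the main locus nearest equality (log2 ratio -0.001). Whether these shares differ beyond the spread of libraries was not tested.

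**Figure D1:**
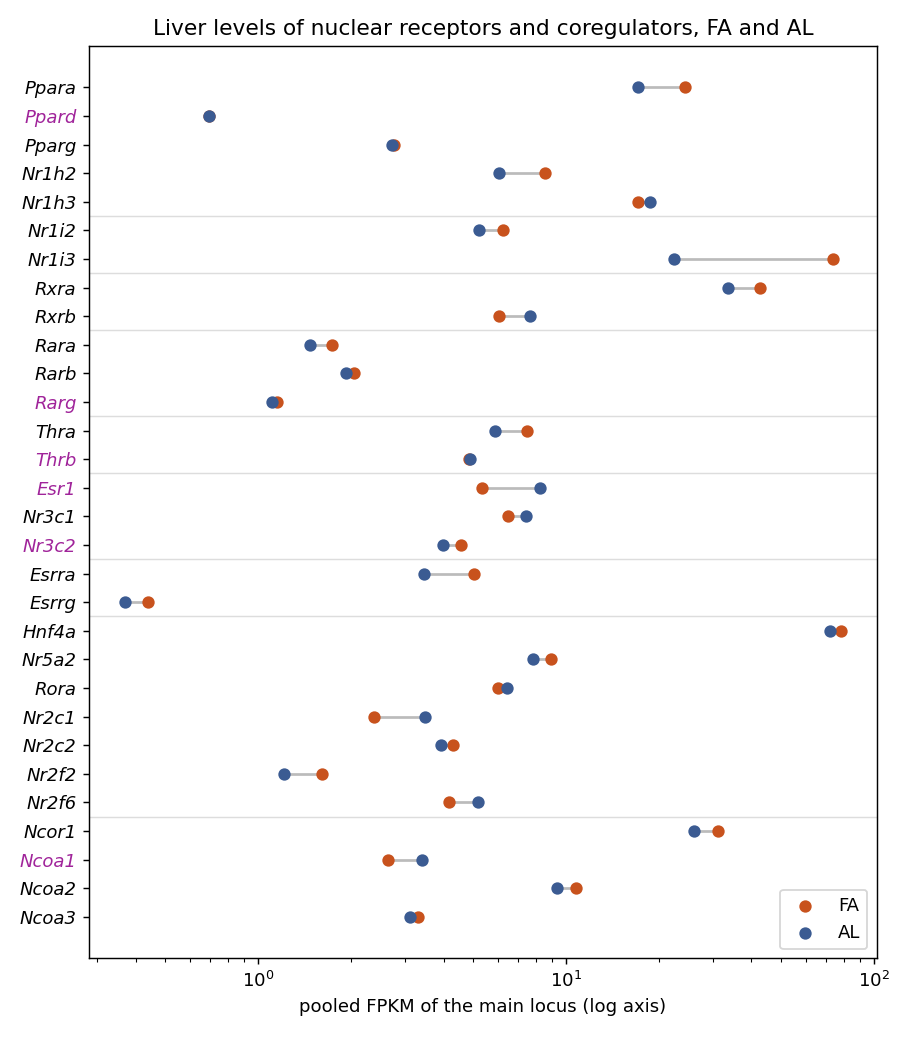
Pooled FPKM of the main locus of each of the 30 genes (log axis) in FA (orange) and AL (blue), grouped by role. Names in purple mark main loci on the strand opposite to the gene. The longest line belongs to Nr1i3, with 73.8 in FA and 22.4 in AL.

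The levels ranged over more than 2 orders of magnitude. Hnf4a, a receptor that maintains hepatocyte identity, was the highest in both groups, with 78.0 FPKM in FA and 71.8 in AL. In FA the next were Nr1i3, Rxra, Ncor1 and Ppara, and in AL they were Rxra, Ncor1, Nr1i3 and Nr1h3. The rank of Nr1i3 was thus 2 in FA and 4 in AL. In all, 7 genes had 10 FPKM or more in FA and 6 in AL, and 2 were under 1 FPKM in each group. Whether neighbours in this order differ beyond the spread of libraries was not tested.

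The strand of a locus bears on what its value measures. The libraries were strand-specific, and the strand of each locus was inferred from the order in which the assembler numbered them, since no column states it. By this reading 24 of the 30 main loci lay on the strand of their gene, and 6 (Ppard, Rarg, Thrb, Esr1, Nr3c2 and Ncoa1) on the other strand. An opposite-strand locus carries the name of the gene it overlaps, and its value may not be that of the gene's annotated transcript. Of loci of known strand not listed at 0 in both groups, 37.6% were read as opposite-strand. The highest locus named for Apoc3, with 879 FPKM in FA, was among them. The reading of strand was not tested, so it is uncertain what values at opposite-strand loci measure.

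Among the xenobiotic receptors, the difference at Nr1i3 was the largest of all 30 genes. CAR induces drug-metabolising enzymes and is also known to act on energy metabolism. Nr1i3 had 73.8 FPKM in FA, against 22.4 in AL, a fold of 3.28 (log2 ratio 1.72). Of the 22056 loci, 181 (0.821%) had a ratio as high or higher. The gene lies at chr1:171213970-171220701 on the plus strand (GENCODE M21, GRCm38). The span listed for its assembled locus, chr1:171213957-171227848, is listed also for the loci of Tomm40l and Apoa2, each with its own value. Those neighbours hardly differed. Tomm40l, which encodes a mitochondrial import protein, had 573 FPKM in FA and 565 in AL, and Apoa2, an apolipoprotein of high-density lipoprotein, had 6610 in FA and 6500 in AL.

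An unnamed locus on the same strand ended 135 bases before the Nr1i3 locus, and it was singled out after its values were seen. It spans chr1:171212822-171213822 and had 2.13 FPKM in FA and 0.188 in AL, a log2 ratio of 2.95. It reached the minimum level only through FA, where it is high, so this ratio is not read against that of Nr1i3. Its end lies inside the 250 bases before the annotated start of Nr1i3, shown here because RNA was assembled over part of them. The stretch is chr1:171213720-171213969, plus strand, from RefSeq (GRCm38.p6), and the 103 capitals are the bases that the unnamed locus covers.
Nr1i3: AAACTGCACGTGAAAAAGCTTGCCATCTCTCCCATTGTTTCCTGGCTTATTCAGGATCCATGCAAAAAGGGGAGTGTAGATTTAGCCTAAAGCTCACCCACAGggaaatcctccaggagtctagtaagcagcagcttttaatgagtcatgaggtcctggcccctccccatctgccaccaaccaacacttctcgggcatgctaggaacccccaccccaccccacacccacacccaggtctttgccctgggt

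Nr1i2, which encodes the pregnane X receptor PXR, a sensor of drugs and bile acids, was lower in level than Nr1i3. It had 6.23 FPKM in FA and 5.23 in AL (log2 ratio 0.25). The level of Nr1i3 was 11.9 times that of Nr1i2 in FA and 4.28 times in AL. The span listed for the Nr1i2 locus also covers Gsk3b.

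The main loci of the lipid-sensing receptors were all within 1.5-fold, with 3 of 5 higher in FA by any amount. Ppara encodes PPAR alpha, the receptor that drives fatty acid oxidation in the fasted liver. It had 24.3 FPKM in FA and 17.2 in AL, a fold of 1.41 (log2 ratio 0.50). Pparg, best known for its role in adipocytes, had 2.76 FPKM in FA and 2.71 in AL at its main locus. Ppard, a broadly expressed relative, had 0.690 FPKM in FA and 0.691 in AL at an opposite-strand locus. Ppara was thus the only PPAR gene whose main locus differed by more than 25%.

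Smaller loci of these genes did not all follow their main locus. Ppard had an annotated-strand locus at 0.424 FPKM in FA and 0.609 in AL, with a log2 ratio of -0.44. Of 3 other Pparg loci at 0.5 FPKM or more, all on the opposite strand, the log2 ratios were -0.15, -0.40 and -0.81. The last, with 0.588 FPKM in FA and 1.11 in AL, was, at a mean of 0.5 FPKM or more, the only locus past 1.5-fold among the 30 genes besides the main loci of Nr1i3 and Esr1.

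The 2 liver X receptors, which sense oxysterols and control cholesterol efflux and lipogenesis, lay on either side of equality. Nr1h2 (LXR beta) had 8.55 FPKM in FA and 6.08 in AL, a fold of 1.40 (log2 ratio 0.49). Nr1h3 (LXR alpha) had 17.1 in FA and 18.8 in AL (log2 ratio -0.13). Nr1h3 was therefore 2.00 times the level of Nr1h2 in FA and 3.09 times in AL. An opposite-strand Nr1h2 locus had 3.46 FPKM in FA and 3.05 in AL. The span listed for the Nr1h3 locus also covers Madd.

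The retinoid X receptors, the shared partners of PPAR, LXR, CAR, PXR, retinoic acid and thyroid hormone receptors, differed in opposite directions. Rxra had 42.6 FPKM in FA and 33.5 in AL (log2 ratio 0.35), and its opposite-strand locus had 14.3 in FA and 10.5 in AL (log2 ratio 0.44). Rxrb had 6.06 in FA and 7.63 in AL (log2 ratio -0.33). The level of Rxra was 7.03 times that of Rxrb in FA and 4.39 times in AL.

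Retinoic acid receptors were low and nearly equal in the 2 groups. Rara had 1.74 FPKM in FA and 1.47 in AL (log2 ratio 0.23), Rarb had 2.05 in FA and 1.93 in AL (0.08), and Rarg had 1.15 in FA and 1.11 in AL (0.04). Both smaller Rara loci, on the opposite strand, were also higher in FA, with log2 ratios of 0.17 and 0.18. The annotated-strand locus of Rarg had 0.559 FPKM in FA and 0.467 in AL (log2 ratio 0.22). Of the thyroid hormone receptors, which set metabolic rate and lipid turnover, Thra had 7.46 FPKM in FA and 5.89 in AL (log2 ratio 0.34). The span listed for the Thra locus also covers Nr1d1. Thrb is regarded as the main thyroid hormone receptor of liver, but its values here were below those of Thra. At its opposite-strand main locus Thrb had 4.86 in FA and 4.89 in AL. Its annotated-strand locus was lower in FA, with 2.09 against 2.73 in AL (log2 ratio -0.37).

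Steroid hormone receptors showed the second difference past the threshold. Esr1 had 5.32 FPKM in FA, against 8.24 in AL, which puts AL 1.54-fold above FA (log2 ratio -0.62). By the inferred strand that locus lies opposite to the gene (chr10:4611593-5005614, plus strand), and its value may not be one of Esr1 mRNA. The annotated-strand locus had 1.90 FPKM in FA and 2.47 in AL, a log2 ratio of -0.36, which did not pass 1.5-fold. With the loci summed (log2 ratio -0.56) or with 1 FPKM added in place of 0.1 (-0.55), Esr1 did not pass either. Nr3c1, the glucocorticoid receptor, which drives gluconeogenic genes, had 6.48 FPKM in FA and 7.44 in AL (log2 ratio -0.20), and 4.58 in FA and 4.97 in AL at an opposite-strand locus. Nr3c2, the mineralocorticoid receptor, had 4.56 in FA and 3.99 in AL on the opposite strand, and 3.84 in FA and 3.37 in AL on its own, with log2 ratios of 0.19 and 0.18. Its further opposite-strand loci had log2 ratios of 0.00 and 0.34.

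The estrogen-related receptors, regulators of mitochondrial genes without a known natural hormone, were both higher in FA. Esrra had 5.02 FPKM in FA and 3.45 in AL, a fold of 1.44 (log2 ratio 0.53), the second highest ratio of the 30 genes. The span listed for its locus also covers Prdx5 and Trmt112. Esrrg, with 0.439 FPKM in FA and 0.369 in AL, was the 1 main locus under the minimum level. It was split over 6 loci, all higher in FA, 5 of them on the opposite strand, and summed over the 6 its log2 ratio was 0.71, which passed 1.5-fold.

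**Figure D2:**
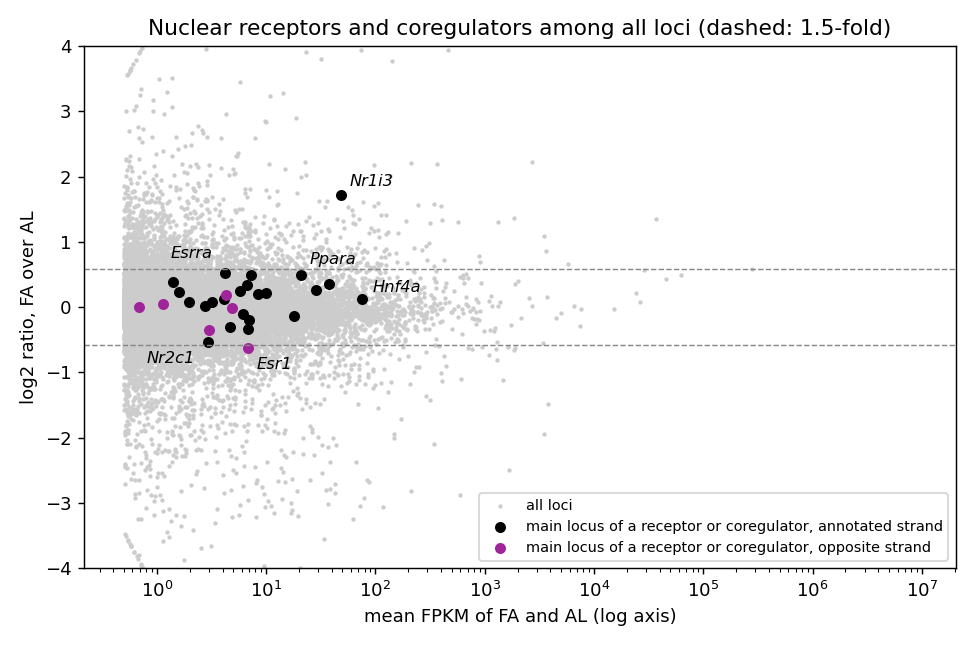
Log2 ratio of FA over AL against the mean FPKM of FA and AL (log axis) for all 22056 loci with a mean of 0.5 or more (grey, 95 loci beyond ±4 not drawn) and the 29 main loci that reached it, on the annotated strand (black) or the opposite strand (purple). Nr1i3 lies above the 1.5-fold line at 1.72 and Esr1 below it at -0.62.

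The liver-enriched and orphan receptors stayed within 1.5-fold. Hnf4a had a log2 ratio of 0.12, and its opposite-strand locus had 24.0 FPKM in FA and 21.0 in AL (0.19). Nr5a2, the bile acid and steroid synthesis regulator LRH-1, had 8.95 FPKM in FA and 7.79 in AL (log2 ratio 0.20), and its opposite-strand locus 3.73 in FA and 2.93 in AL (0.33). Rora, a receptor tied to the circadian clock, had 5.99 in FA and 6.42 in AL (-0.10). All 3 were closer to equality than Ppara.

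The testicular receptors, orphans that bind repeats of the same core motif as other receptors, differed in direction. Nr2c1 (TR2) had 2.38 FPKM in FA and 3.48 in AL, a log2 ratio of -0.53, the lowest among annotated-strand main loci. Its opposite-strand loci had log2 ratios of -0.40 and 0.25. Nr2c2 (TR4) had 4.29 in FA and 3.92 in AL (0.13). Of the COUP family, often repressors, Nr2f2 had 1.61 in FA and 1.21 in AL (0.38) and Nr2f6 had 4.17 in FA and 5.17 in AL (-0.30).

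Among the coregulators, 3 of 4 were higher in FA, all within 1.5-fold. Ncor1, the corepressor that recruits histone deacetylase 3 to receptors without an activating ligand, had 31.2 FPKM in FA and 26.1 in AL (log2 ratio 0.25). Ncoa2, a p160 coactivator, had 10.8 in FA and 9.32 in AL (0.21), and Ncoa3 had 3.31 in FA and 3.12 in AL (0.08). Ncoa1 had 2.65 in FA and 3.41 in AL (-0.35) on the opposite strand and 1.15 in FA and 1.32 in AL (-0.19) on its own. A second opposite-strand Ncoa1 locus had a log2 ratio of -0.22, and those of Ncoa2 had 0.02 and 0.11. Ncor1 stood at 2.89 times the level of Ncoa2 in FA and 2.80 times in AL. On the annotated strand the order of the coactivators by level was Ncoa2, Ncoa3, Ncoa1 in both FA and AL.

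Loci of a gene mostly had the same sign. Of 15 genes with more than 1 locus at 0.5 FPKM or more, 8 had all their loci higher in FA, 5 had all lower, and Pparg and Nr2c1 were mixed. Set against each other without a minimum level, the highest annotated-strand and the highest opposite-strand locus had the same sign in 15 of 16 genes that had both. Pparg was the exception. The 16 include Esrrg, whose loci were under 0.5 FPKM, and Ppard, near equality at its main locus. The share over all genes with both strands was not computed. These loci come from the same libraries and are no replicates.

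**Figure D3:**
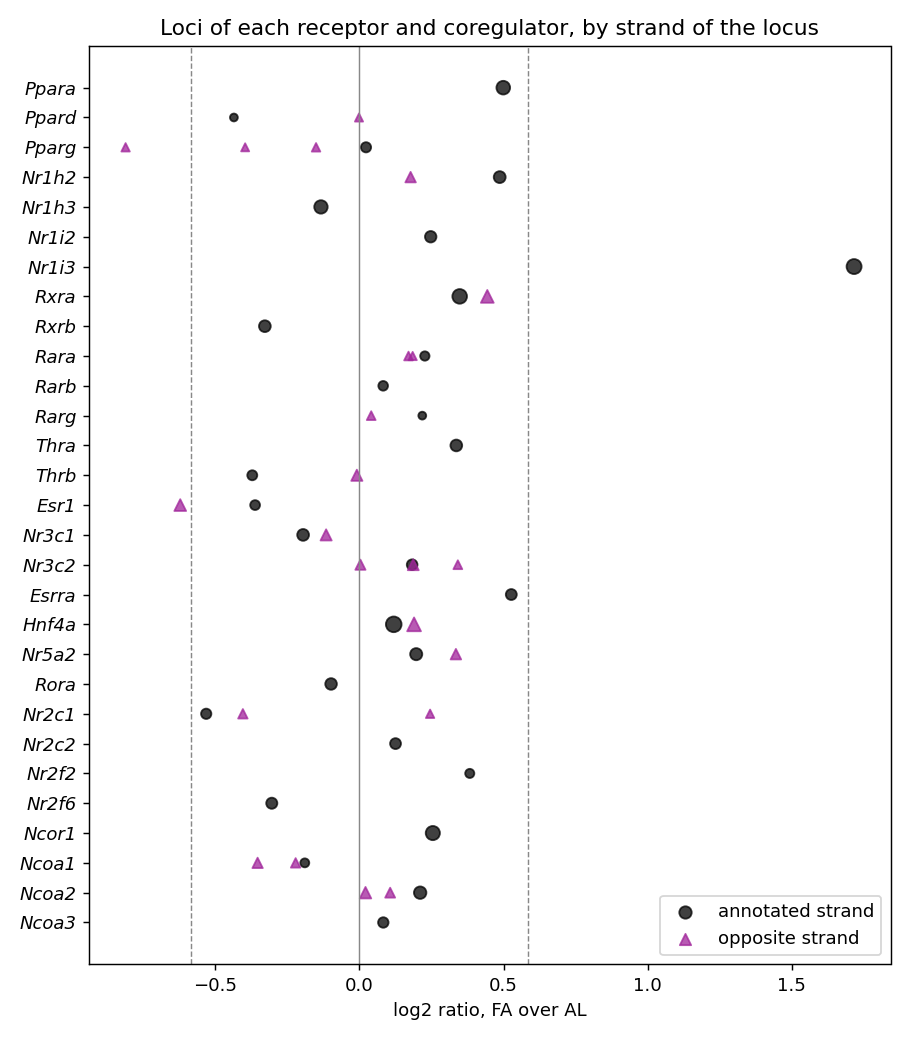
Log2 ratio of FA over AL for the 52 loci of the receptors and coregulators with a mean FPKM of 0.5 or more, on the annotated strand (black circles) or the opposite strand (purple triangles), with larger marks for higher FPKM. Dashed lines mark 1.5-fold, which Nr1i3, the opposite-strand Esr1 locus and 1 opposite-strand Pparg locus passed.

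Refeeding could be compared less widely. The table of RF and FA holds 1 transcript per locus where the table of FA and AL holds the whole locus, and FA values agreed within 10% between them in 6 of the 30 main loci. For the other 24 the RF and FA values cover part of the locus. Of all 39364 loci with FA above 0, 65.3% agreed within 10%. In RF over FA, 15 main loci reached a mean of 0.5 FPKM, 2 of them passed 1.5-fold and both were higher in RF. With 0.01 FPKM added in place of 0.1, the opposite-strand main locus of Thrb also passed, lower in RF. Over all 14772 loci 17.6% passed, 9.11% higher and 8.52% lower in RF, and 16.0% passed among 12024 loci with matching FA.

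Esr1 passed at its opposite-strand main locus, with 17.0 FPKM in RF and 5.32 in FA, a fold of 3.16 (log2 ratio 1.66). The 1 transcript of its annotated-strand locus was near the floor of the scale, with 0.160 in RF and 0.0244 in FA. Nr1i2 was the other gene, with 1.94 FPKM in RF and 0.843 in FA (log2 ratio 1.11), for a transcript that made up 13.5% of the locus value in FA. The transcript of Nr1i3 made up 51.1% of its locus value in FA, and it had 37.1 FPKM in RF and 37.7 in FA (log2 ratio -0.02).

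The remaining main loci in this comparison were within 1.5-fold. Transcripts of Ppara had 0.573 FPKM in RF and 0.605 in FA, and of Hnf4a 1.36 in RF and 1.28 in FA. Rxra had 8.23 in RF and 9.12 in FA, and Rxrb 3.54 in RF and 3.43 in FA. These are small parts of the loci of Ppara and Hnf4a, and larger parts for the RXR genes. Ncor1 had 1.63 in RF and 2.14 in FA (log2 ratio -0.37), and Ncoa3 had 2.14 in RF and 1.74 in FA (0.29). The opposite-strand main locus of Thrb had 0.393 in RF and 0.625 in FA (-0.56), for a transcript that made up 12.9% of the locus value in FA. Its annotated-strand locus went the other way, with 2.45 in RF and 1.78 in FA (0.44), for a transcript that made up 85.3%. The transcript of Pparg had 0.526 in RF and 0.455 in FA, under the minimum mean. The other 14 genes under it, among them Rora and Thra listed at or near 0, are not read further here.

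RF was set beside AL only where FA matched. Of the 6 main loci, Esr1 was past 1.5-fold, with 17.0 FPKM in RF and 8.24 in AL (log2 ratio 1.04), while 11.8% of 11958 matching loci passed, 5.03% higher and 6.82% lower in RF. Nr3c2 had 3.19 in RF, 4.56 in FA and 3.99 in AL, and Ncoa1 had 2.91 in RF, 2.65 in FA and 3.41 in AL. Rarb had 2.06 in RF, 2.05 in FA and 1.93 in AL, Rarg had 1.20 in RF, 1.15 in FA and 1.11 in AL, and Ppard had 0.725 in RF, 0.690 in FA and 0.691 in AL. Rarb was the only one of these 6 on its annotated strand.

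A matching locus of any size was found for 15 genes, 14 of them on the opposite strand, and this choice was made after the values were seen. Here Esrrg joined Esr1 past 1.5-fold in RF over FA and in RF over AL, with 0.837 FPKM in RF, 0.468 in FA and 0.334 in AL. It reached the minimum mean only through RF, where it is high, so its place in these counts is set by the filter. Hnf4a had 21.5 in RF, 24.0 in FA and 21.0 in AL, and Nr3c1 had 5.79 in RF, 4.58 in FA and 4.97 in AL. Nr5a2 had 2.96 in RF, 3.73 in FA and 2.93 in AL, and Nr1h2 had 2.93 in RF, 3.46 in FA and 3.05 in AL. Ncoa2 had 5.30 in RF, 5.83 in FA and 5.74 in AL. Nr2c1 had 1.63 in RF, 1.49 in FA and 2.01 in AL, Rara had 1.00 in RF, 1.12 in FA and 0.987 in AL, and Pparg had 1.03 in RF, 0.875 in FA and 0.983 in AL. The comparisons share the FA libraries, or the AL libraries, and are given side by side only.

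**Figure D4:**
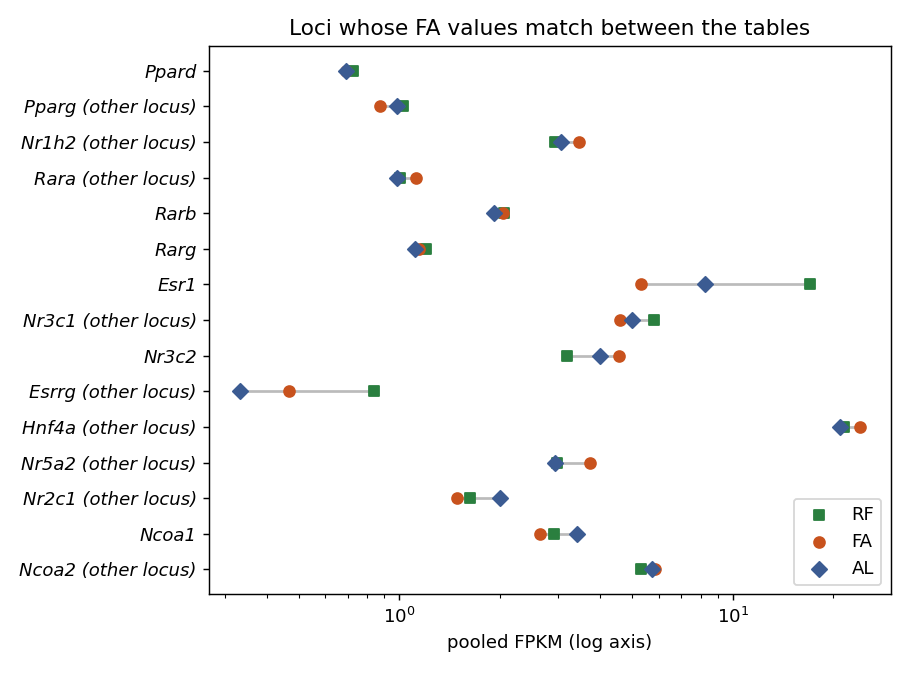
Pooled FPKM (log axis) in RF (green squares), FA (orange circles) and AL (blue diamonds) at the highest locus with matching FA values of 15 genes; "other locus" marks those that are not the main locus, and all but Rarb lie on the opposite strand. Esr1 has 17.0 in RF, 5.32 in FA and 8.24 in AL.

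Sequence was read around the annotated starts because receptors often bind the core hexamer AGGTCA. RefSeq (GRCm38.p6) gave 43 starts for 26 of the 30 genes, and Thra, Nr3c1, Ncoa2 and Ncoa3 were not matched. In the 250 bases before them, AGGTCA or its reverse complement TGACCT was present in 6 (14.0%), at Nr5a2, Pparg, Rarg, Rxra and Thrb, against 14.0% of all 32851 starts. The forkhead motif TGTTTAC (reverse complement GTAAACA) was in 2.33% against 3.17%, and TGACG (reverse complement CGTCA), the core of the cAMP response element, in 14.0% against 17.8%. No matches overlapped at these genes. A start of Rxra held 2 AGGTCA matches, the most of any, and it is shown with them in capitals (chr2:27709042-27709291, plus strand). The first RefSeq start matched for Esr1, the other gene past the threshold, held none of the 3 motifs (chr10:4611739-4611988, plus strand). This stretch lies inside the GENCODE range of Esr1, which begins at 4611593.
Rxra: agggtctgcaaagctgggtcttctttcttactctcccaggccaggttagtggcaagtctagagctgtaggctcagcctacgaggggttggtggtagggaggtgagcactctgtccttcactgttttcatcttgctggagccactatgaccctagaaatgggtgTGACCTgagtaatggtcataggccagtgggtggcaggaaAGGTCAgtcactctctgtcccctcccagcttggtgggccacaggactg
Esr1: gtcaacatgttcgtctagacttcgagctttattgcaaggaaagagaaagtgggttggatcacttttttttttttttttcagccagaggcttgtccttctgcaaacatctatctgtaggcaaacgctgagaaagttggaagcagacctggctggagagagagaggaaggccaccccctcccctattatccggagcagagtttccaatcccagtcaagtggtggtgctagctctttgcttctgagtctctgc

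Lists of genes that the receptors are known to act on were read beside them, against the 6.68% of all loci that were higher and the 8.33% that were lower in FA. Of 17 PPAR alpha targets, 12 passed 1.5-fold higher and 2 lower in FA, with a median log2 ratio of 1.22, beside 0.50 for Ppara itself. Cyp4a14, a fatty acid hydroxylase, had 542 FPKM in FA and 6.01 in AL, and its relative Cyp4a10 had 521 in FA and 12.6 in AL at a locus that also names other Cyp4a genes. Acot1, an acyl-CoA thioesterase, had 17.4 in FA and 2.34 in AL, and Angptl4, an inhibitor of lipoprotein lipase, 17.5 in FA and 2.38 in AL, both on the opposite strand, as were 5 of the 17 loci. Fgf21 reached the minimum level only through FA, where it is high, and without it 11 passed higher.

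Of 12 glucocorticoid receptor targets, 9 passed higher and 0 lower in FA, with a median log2 ratio of 0.79, beside -0.20 for Nr3c1, and 5 of the 12 loci lay on the opposite strand. The metallothionein gene Mt2 had 89.4 FPKM in FA and 2.84 in AL, and its neighbour Mt1 had 140.2 in FA and 9.05 in AL. Pck1, the gluconeogenic phosphoenolpyruvate carboxykinase, had 606 in FA and 132 in AL, and Per1, a clock gene, 3.03 in FA and 0.744 in AL.

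Of 10 CAR and PXR targets at the minimum level, 5 passed higher and 2 lower in FA. Their median log2 ratio was 0.61, beside 1.72 for Nr1i3 and 0.25 for Nr1i2. Por, the electron donor of cytochromes P450, had 116 FPKM in FA and 38.1 in AL, and Cyp3a11 had 273 in FA and 109 in AL at a locus that also names Cyp3a41a. Cyp2c29 had 165 in FA and 421 in AL, and Cyp2c55 had 0.118 in FA and 1.27 in AL. Cyp2c55 reached the minimum level only through AL, where it is high, and without it 5 passed higher and 1 lower. Cyp2b10, the classic CAR target, stayed at 1.28 in FA and 0.964 in AL, at an opposite-strand locus, and is named outside the rule for naming genes.

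Of 11 LXR targets, 1 was higher and 3 lower in FA past 1.5-fold, with a median log2 ratio of -0.18. Srebf1, the lipogenic regulator, had 8.08 FPKM in FA and 66.1 in AL, and Scd1, a fatty acid desaturase, 143 in FA and 1058 in AL at a locus that also names Hif1an. Abca1, a cholesterol exporter, had 16.4 in FA and 25.9 in AL, and Mylip, a ubiquitin ligase for the LDL receptor, 1.62 in FA and 0.810 in AL at an opposite-strand locus. Of 6 thyroid hormone receptor targets at the minimum level, the loci named for Thrsp (1.28 in FA, 58.8 in AL) and Me1 (7.55 in FA, 36.2 in AL), both lipogenic genes, were lower and that of Klf9 (12.6 in FA, 7.33 in AL) was higher, with those of Thrsp and Klf9 on the opposite strand. Of the retinoic acid receptor targets, Cyp26a1 and Cyp26b1, enzymes that degrade retinoic acid, were lower, with log2 ratios of -1.68 and -0.85, the second at an opposite-strand locus. Of 8 ERR alpha targets, Acadm was higher (170.2 in FA, 78.1 in AL) and Cs was lower (11.0 in FA, 21.0 in AL). Of 9 HNF4A targets, Apoa4 was higher (33.7 in FA, 8.41 in AL) and Ttr lower (1504 in FA, 2324 in AL).

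Other receptors and coregulators served as a wider view of the family. Of 23 other nuclear receptors, 9 reached the minimum level and 0 passed 1.5-fold in FA over AL. In RF over FA, 6 matching loci of this list were compared, with 1 higher and 1 lower in RF past 1.5-fold. The lower one was Nr0b2, the bile acid responsive repressor SHP (1.37 FPKM in RF, 3.54 in FA). Of all 12024 loci with matching FA, 16.0% passed in RF over FA. In FA over AL the share of all loci past 1.5-fold was 15.0% (6.68% higher in FA). Of 21 other coregulators, 3 passed, all higher in FA and all at opposite-strand loci. These were Ncoa7 (1.20 in FA, 0.172 in AL), Ppargc1b (1.81 in FA, 1.02 in AL) and Ppargc1a (3.18 in FA, 1.96 in AL), the last being PGC-1 alpha, a coactivator of PPAR alpha and the estrogen-related receptors. Ncoa7 reached the minimum level only through FA, where it is high, and without it 2 passed. In RF over FA the log2 ratios were -1.15 for Ppargc1b and -1.28 for Ppargc1a, at loci named for being high in FA, and Ncoa7 is listed at 0 in RF.

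Markers of liver cell types were read in the same way, against the 6.68% of all loci higher and 8.33% lower in FA. Of 6 hepatocyte markers 5 were compared, with a median log2 ratio of 0.06, 1 higher and 1 lower past 1.5-fold, and sums of 6752 FPKM in FA and 5867 in AL. Without Cyp2e1 (2654 in FA, 1031 in AL) the sums were 4098 in FA and 4837 in AL. Alb, which encodes albumin, is listed at 0 in both groups, so a locus listed at 0 can be a failed estimate. Kupffer cell markers had a median log2 ratio of -0.32 (8 of 8 compared, 1 higher and 0 lower past 1.5-fold, sums of 28.1 in FA and 34.1 in AL). Endothelial markers had -0.26 (7 of 7, 1 higher and 0 lower, 39.7 in FA and 45.7 in AL), and stellate cell and fibroblast markers -0.35 (8 of 8, 0 higher and 1 lower, 56.2 in FA and 63.6 in AL). Cholangiocyte markers had -0.38 (4 of 5, 1 higher and 1 lower, 5.51 in FA and 7.29 in AL) and erythroid markers -0.42 (3 of 4, 0 higher and 1 lower, 562 in FA and 758 in AL). The Kupffer cell marker Marco and the cholangiocyte markers Epcam and Krt19 reached the minimum level only through the group where they are high, and without them 0 markers of either list passed. None of the 3 adipocyte or 5 lymphocyte markers reached 0.5 FPKM, and Lep is listed at 0 in both groups. The part of these differences in the values of the receptors was not tested.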

How the data were processed

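Per the labels and the study's methods, liver RNA was depleted of ribosomal RNA, strand-specific libraries were sequenced, reads of ribosomal origin were filtered out using Bowtie2 2.2.9, and reads were aligned to GRCm38 with STAR 2.6.0c. The authors assembled, merged and compared transcripts with Cufflinks 2.2.1 (Cuffdiff). The deposited values are FPKM, pooled by the authors into 1 per group and locus, in 2 tables (FA and AL, RF and FA) with 0 columns of single libraries. Depth is unknown, and no SD, interval or test was possible. The scaling of FPKM across libraries is not stated in the labels or methods. Columns with the authors' own fold changes, test statistics, p-values and q-values were not used.

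Groups came from the sample titles. The log2 ratio was taken after adding 0.1 FPKM to each value, for FA over AL, RF over FA and RF over AL, at a mean FPKM of 0.5 or more and a threshold of 1.5-fold. RF was set beside AL only where FA agreed within 10% between the tables. Strand was read from the numbering of loci within a chromosome. By this reading, 99.9% of 25330 loci listed at 0 in both groups had the strand of their gene. Of the other loci of known strand, 37.6% lay on the opposite one. Positions came from GENCODE M21 and RefSeq. The 30 genes, the 10 lists of other genes and the 8 marker lists were chosen with earlier results of these data known. The text names all 30 genes by main locus, their other loci at the minimum level, and from each list up to 4 genes with the largest ratio past 1.5-fold, apart from a few list genes that are not reported here. Fgf21, Marco, Epcam and Krt19, named for how they passed the filter, and Cyp2e1, for its part in a sum, were chosen after their values were seen. The calculation was tested on simulated data, with Python 3.11.15, pandas 2.3.3 and numpy 2.4.6. Alternatives were other pseudocounts, filters, thresholds, matching tolerances and choices of locus.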

Additional observations from a re-analysis of the deposited data

How the results depend on the processing

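The count of FA over AL past 1.5-fold was 2 and became 1 with 1 FPKM added, 1 with annotated-strand loci only, 1 at 2-fold and 11 with a threshold 25% above equality. It stayed at 2 under the other 6 settings, where summing the loci put Esrrg in place of Esr1. Of all loci, 6.01% passed 2-fold and 33.4% passed the 25% threshold in FA over AL. In RF over FA the count of 2 became 1 with annotated-strand loci (Nr1i2), 1 with main loci whose FA matched (Esr1), 1 at a mean of 2 FPKM, 3 with 0.01 FPKM added (the opposite-strand Thrb locus passing lower in RF), 5 at the 25% threshold and 6 without a filter. Shares of all loci in RF over FA at the 25% threshold or without a filter were not computed, so those counts are not read further. In RF over AL the count of 1 became 0 with annotated-strand loci, where 1 locus was left, and 2 with the highest matching locus of any gene, a setting added after the values were seen. Log2 ratios stayed within 1.5-fold of their value and on their side of the threshold in 176 of 180 recomputed values in FA over AL (the exceptions were Esr1 and Esrrg), 171 of 186 in RF over FA and 38 of 38 in RF over AL, and 0 called ratios changed sign. Leaving out a library was not run, since the tables hold pooled values only. No paired analysis was possible because the columns carry no replicate numbers.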
